A study of Mus musculus with 16 samples.

Results

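The 10 genes described here belong to the circadian clock: Arntl, Npas2, Per1, Per2, Per3, Cry2, Nr1d1, Nr1d2, Dbp and Ciart. They were taken by symbol from the 20525 genes of the deposited matrix of kidney RNA sequencing, all 10 were found, and all 10 were among the 18035 genes with values high enough to be tested. The kidneys came from 8-week-old mice of the background spelled C56BL/6 in the labels. In 4 groups of 4 libraries each, mice labelled C3-/- received glycerol, mice labelled C3-/- received PBS, wild-type (WT) mice received glycerol, and WT mice received PBS. The C3-/- genotype targets C3, the central component of the complement system. Glycerol, 7.5 ml/kg of a 50% solution injected into thigh muscle, causes rhabdomyolysis, the breakdown of skeletal muscle, which injures the kidney. RNA was taken from frozen kidney sections 30 µm thick, so each library mixes all cell types of the section. The labels give neither the hour of day at sampling, nor the lighting, nor the time from injection to sampling, nor the sex of the mice. Whether each library stands for its own animal is not stated. A p-value therefore reflects the variation among libraries, part of which may be technical.

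The mammalian clock is a feedback loop of transcription that runs in nearly every cell. ARNTL (also called BMAL1) pairs with CLOCK or its relative NPAS2, binds E-box sequences and activates the Per and Cry genes, the nuclear receptors Nr1d1 and Nr1d2 (REV-ERB alpha and beta), Dbp and Ciart (also called CHRONO). PER and CRY proteins return to the nucleus and repress ARNTL and its partner, and CIART does the same. The NR1D receptors repress Arntl and Npas2 through ROR elements, so that Arntl and Npas2 peak at another time of day than Dbp and the Per genes. In the kidney the clock drives daily rhythms of salt and water transport. A single time of sampling shows 1 point of such a cycle, and groups sampled at different hours would differ in these genes for that reason alone. Because the hours are not given, group and hour of sampling cannot be told apart here.

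Promoters of 9 of the 10 genes were found in the RefSeq table for GRCm38.p6, as windows from 250 bases before to 50 bases after the annotated start. They are shown because the binding elements of the loop can be read in them. The 3 printed below hold, in capitals, the E-box CACGTG (Ciart), the D-box TTATGTAA (Per3), which is bound by DBP and its relatives, and the ROR element TAGGTCA (Arntl, at the second of its annotated starts).
Ciart, chr3:95882179-95882478, minus strand: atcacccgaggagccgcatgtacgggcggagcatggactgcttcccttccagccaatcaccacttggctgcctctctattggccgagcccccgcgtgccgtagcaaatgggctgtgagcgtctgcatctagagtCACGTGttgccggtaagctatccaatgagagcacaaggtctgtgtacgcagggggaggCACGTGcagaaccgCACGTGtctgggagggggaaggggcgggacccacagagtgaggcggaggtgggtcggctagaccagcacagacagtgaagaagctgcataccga
Per3, chr4:151044616-151044915, minus strand: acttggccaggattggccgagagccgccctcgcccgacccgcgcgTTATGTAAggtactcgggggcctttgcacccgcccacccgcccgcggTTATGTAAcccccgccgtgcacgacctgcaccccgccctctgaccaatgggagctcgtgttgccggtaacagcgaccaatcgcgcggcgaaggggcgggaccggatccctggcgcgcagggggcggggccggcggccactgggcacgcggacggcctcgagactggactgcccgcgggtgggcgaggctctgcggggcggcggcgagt
Arntl, chr7:113207261-113207560, plus strand: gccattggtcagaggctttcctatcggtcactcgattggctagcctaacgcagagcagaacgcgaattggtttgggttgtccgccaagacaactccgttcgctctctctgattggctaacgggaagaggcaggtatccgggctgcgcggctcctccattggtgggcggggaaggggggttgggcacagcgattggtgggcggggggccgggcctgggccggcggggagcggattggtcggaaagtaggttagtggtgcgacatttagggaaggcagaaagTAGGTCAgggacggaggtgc
Both strands were searched for exact matches. The 3 E-boxes of Ciart begin at -116, -58 and -44, counted from the start, and 0.0883% of the 32851 promoters searched hold at least 3. The 2 D-boxes of Per3 begin at -205 and -158, matching the letters TTANGTAA, and 0.198% of promoters hold at least 2. The ROR element of Arntl lies 31 to 37 bases after the start, and 2.61% of promoters hold 1. Of the other windows, Per1 has an E-box at -166 from 1 of its starts, a motif in 7.15% of promoters, and Cry2 and Nr1d1 each have the variant CACGTT on the strand opposite to the gene, a motif in 4.68%. The windows of Npas2, Nr1d2 and Dbp have none of these letters. The cAMP element TGACGTCA, in 1.79% of promoters, was found in no window of the 10 genes. A match is a description of letters and not evidence of binding in these kidneys.

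The normalized counts of a library added up to 25.81 M at the lowest and 38.39 M at the highest, and the sequencing depth behind them is unknown. The descriptions of 13 libraries carry the running numbers 1 to 13, here called list 1, and those of the other 3 repeat the numbers 3, 4 and 5, here called list 2. List 2 holds WT glycerol 4 and glycerol 1 and 3 of the libraries labelled C3-/-, so it holds glycerol libraries only. On the first principal component of all tested genes, with 45% of the variance, the list 2 libraries lay between -220.4 and -96.3 and the others between -39.5 and 58.6. WT glycerol 4 had 3374 genes listed at 0, against 190 to 982 in the other 15 libraries. The sources used here do not say what the list numbers stand for, and each clock gene is therefore given with and without list 2. Libraries labelled C3-/- did not have less total C3, with 4137 ± 3189 normalized counts after glycerol labelled C3-/- and 3235 ± 1287 after glycerol in WT, and with 846 ± 236 after PBS labelled C3-/- and 398 ± 61.4 after PBS in WT (SD, n = 4 each). The sources used here do not say which part of C3 was deleted, so this total does not check the genotype label, and every direction between genotypes below rests on the labels. Transcripts of 4 Y-linked genes were at a mean log2 value of 0 to 0.711 in 5 libraries labelled C3-/- (glycerol 1 and 2, PBS 1 to 3) and of 9.17 to 10.5 in the other 11 libraries, all 8 WT ones included. Sex and genotype are thus partly confounded. Kidney identity was clear: all 15 markers of nephron segments and podocytes that were listed were in the table and tested. The summed levels of 4 proximal tubule markers were 44730 to 228600 in glycerol libraries labelled C3-/- and 155900 to 240600 in PBS libraries labelled C3-/-, and 13700 to 70450 in WT glycerol libraries and 174200 to 207900 in WT PBS libraries. In bulk tissue, fewer cells of a type and less RNA per cell cannot be told apart, and the part of these shifts in the results below was not tested.

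**Figure D1:**
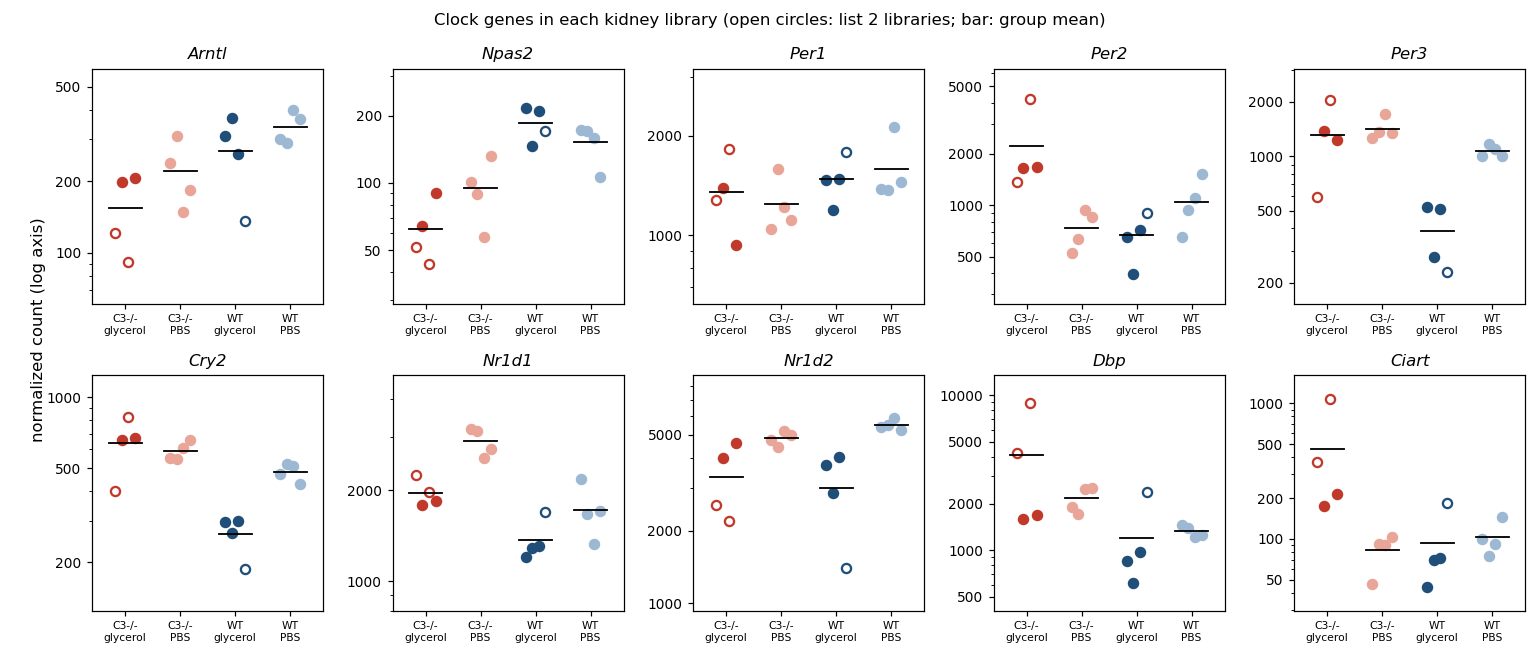
Normalized counts on a log axis of the 10 clock genes in each of 16 kidney libraries, by group, with glycerol left of PBS in each genotype; open circles are the 3 list 2 libraries and the bar is the group mean (n = 4). Per3 and Cry2 lie lower in every WT glycerol library than in any WT PBS library, and Per2 lies higher in every glycerol library labelled C3-/- than in any PBS library with that label.

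The first question is how the activators stood. Neither passed the test after glycerol in either genotype, and Npas2 differed between the genotypes after glycerol. Arntl had 122, 198, 91.7 and 206 normalized counts in the glycerol libraries labelled C3-/-, against 239, 310.1, 148 and 183 in the PBS libraries with that label. The WT values were 308, 369, 261 and 136 after glycerol, against 300.05, 291, 397 and 364 after PBS. The lowest 3 of the 16 Arntl values are the 3 list 2 libraries, and the glycerol and PBS values overlap in both genotypes. The log2 difference of glycerol over PBS was -0.53 ± 0.34 labelled C3-/- and -0.41 ± 0.34 in WT (SE; limma adjusted p = 0.311 and 0.390). Within list 1 the 2 differences shrank to -0.07 and -0.11.

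Npas2, which can stand in for CLOCK as the partner of ARNTL, had 51.7, 64.6, 43.3 and 90.3 normalized counts in glycerol libraries labelled C3-/-, against 101, 89.7, 57.6 and 132 in PBS libraries labelled C3-/-. WT libraries held 216, 146, 209 and 169.8 after glycerol, against 173, 170.0, 159 and 106 after PBS. All 4 glycerol values labelled C3-/- lie below all 4 WT glycerol values. After glycerol Npas2 was lower in the libraries labelled C3-/- than in WT by a log2 difference of -1.59 ± 0.29 (SE), with means of 62.5 ± 20.5 and 185 ± 33.1 normalized counts (SD, n = 4 each; limma adjusted p = 0.0024). It was called without any 1 of the 8 glycerol libraries, and in list 1 alone with a log2 difference of -1.28 ± 0.32 (limma adjusted p = 0.0109).

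Among the repressors, Per3 and Cry2 fell after glycerol in WT, Per2 and Ciart rose after glycerol in the libraries labelled C3-/-, and Per1 passed the test in no comparison. Per1, the period gene that also answers directly to cAMP and glucocorticoid signals, had 1283, 1388, 1823 and 933 normalized counts in glycerol libraries labelled C3-/-, against 1046, 1592, 1215 and 1110.2 in PBS libraries labelled C3-/-. Its values in WT were 1474, 1197, 1483 and 1786 after glycerol, against 1386, 1375, 2126 and 1453 after PBS. The groups overlap throughout, with log2 differences of glycerol over PBS of 0.11 ± 0.22 labelled C3-/- and -0.08 ± 0.22 in WT (SE), whose 95% intervals run from -0.36 to 0.57 and from -0.55 to 0.38.

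Per2, a core repressor that several signals induce, had 1378, 1651, 4228.5 and 1687 normalized counts in glycerol libraries labelled C3-/-, against 526, 637, 932 and 859 in PBS libraries labelled C3-/-. The groups do not overlap, and glycerol 3 stands far above the other 3. In WT the values were 652, 396, 716 and 899 after glycerol, against 654, 933, 1096 and 1516 after PBS, which overlap. Per2 rose after glycerol in the libraries labelled C3-/- by a log2 difference of 1.48 ± 0.36 (SE), a 2.79-fold change (limma adjusted p = 0.0255). The WT difference was -0.65 ± 0.36 (limma adjusted p = 0.196). The rise was called in list 1 alone, at 1.21 ± 0.32 (limma adjusted p = 0.0170). It was not called without PBS 1 or PBS 2 labelled C3-/- (adjusted p = 0.0927 and 0.0806).

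Per3, the third period gene, whose window holds the D-boxes printed above, had 598.4, 1376, 2033 and 1227 normalized counts in glycerol libraries labelled C3-/-, against 1259.6, 1366, 1715 and 1349 in PBS libraries labelled C3-/-. These overlap. In WT libraries they were 525, 277, 510.3 and 230.2 after glycerol, against 1008, 1169, 1097 and 1001 after PBS, and every glycerol value is below every PBS value. Per3 fell after glycerol in WT to 386 ± 154 normalized counts, against 1069 ± 79.9 after PBS (SD, n = 4 each). The log2 difference was -1.56 ± 0.33 in WT (SE; limma adjusted p = 0.0030) and -0.24 ± 0.33 labelled C3-/- (limma adjusted p = 0.635). Without list 2 the WT difference was -1.34 ± 0.19.

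Cry2, a cryptochrome that binds and silences ARNTL with its partner, had 398, 659, 823 and 671 normalized counts in glycerol libraries labelled C3-/-, against 550.0, 547, 609.8 and 656 in PBS libraries labelled C3-/-. The WT values were 297, 267, 298 and 187 after glycerol, against 472, 522, 512 and 427 after PBS. The WT groups do not overlap, while those labelled C3-/- do. Cry2 fell in WT by 0.90 ± 0.21 on the log2 scale (SE; limma adjusted p = 0.0064), and its difference labelled C3-/- was 0.07 ± 0.21 (limma adjusted p = 0.849). The falls of Per3 and Cry2 in WT were called without any 1 of the 8 WT libraries and in list 1 alone.

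Ciart, whose window holds the 3 E-boxes, had 367, 175, 1070.0 and 214 normalized counts in glycerol libraries labelled C3-/-, against 46.1, 91.2, 89.7 and 102 in PBS libraries labelled C3-/-. All 4 glycerol values are above all 4 PBS values, and the highest 2 are the list 2 libraries. Among WT libraries it had 44.2, 69.4, 72.3 and 185 after glycerol, against 98.9, 74.4, 91.7 and 144 after PBS, and these overlap. Ciart rose in the libraries labelled C3-/- by a log2 difference of 2.13 ± 0.52 (SE; limma adjusted p = 0.0271), which was 1.28 ± 0.33 in list 1 alone (limma adjusted p = 0.0154). Its call ended without glycerol 1, PBS 1, PBS 2 or PBS 3 labelled C3-/- (adjusted p = 0.0737, 0.0992, 0.0640 and 0.0624). The WT difference was -0.31 ± 0.52 (limma adjusted p = 0.690).

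The nuclear receptors differed from one another. Nr1d1 had 2242, 1789.7, 1968 and 1842 normalized counts in glycerol libraries labelled C3-/-, against 3199.8, 3139, 2565 and 2734 in PBS libraries labelled C3-/-. Every glycerol value is below every PBS value, yet the log2 difference of -0.57 ± 0.17 (SE) missed the threshold (limma adjusted p = 0.0571). WT values ran at 1199, 1284, 1313 and 1692 after glycerol, against 2176, 1672, 1333 and 1711 after PBS, which overlap, with a difference of -0.32 ± 0.17 (limma adjusted p = 0.170). Both passed without list 2, at -0.67 ± 0.15 labelled C3-/- and -0.42 ± 0.13 in WT (limma adjusted p = 0.0077 and 0.0171). With all 16 libraries, Nr1d1 was the 1 clock gene called higher in the libraries labelled C3-/- than in WT after PBS. Its means were 2909 ± 309 labelled C3-/- and 1723 ± 346 in WT, in normalized counts (SD, n = 4 each). That log2 difference was 0.77 ± 0.17 (SE; limma adjusted p = 0.0216), and leaving out any 1 of PBS 1 and 2 labelled C3-/- or WT PBS 2, 3 and 4 ended the call (adjusted p from 0.0683 to 0.0978).

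Nr1d2, the second REV-ERB, had 2555, 4030.2, 2199 and 4624 normalized counts in glycerol libraries labelled C3-/-, against 4753, 4435, 5179 and 5009 in PBS libraries labelled C3-/-. The values in WT were 3741, 2877, 4041 and 1399 after glycerol, against 5402, 5518, 5886 and 5221.5 after PBS. The WT groups do not overlap, and the 3 lowest of the 16 values are the list 2 libraries. Nr1d2 fell in WT by 0.98 ± 0.29 on the log2 scale (SE; limma adjusted p = 0.0240), and the difference labelled C3-/- was -0.60 ± 0.29 (limma adjusted p = 0.222). Without WT glycerol 4 the WT fall was 0.65 on the log2 scale. The call ended without WT PBS 1, 2 or 3 (adjusted p = 0.0513, 0.0539 and 0.0603) and with equal column sums (adjusted p = 0.116), while in list 1 alone it was -0.65 ± 0.11 (limma adjusted p = 0.0003).

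Dbp, a PAR bZIP activator whose mRNA is a strongly cycling output of the loop, varied most between libraries of 1 group apart from Ciart. It had 4216, 1589, 8925 and 1688 normalized counts in glycerol libraries labelled C3-/-, against 1909, 1711, 2481 and 2535 in PBS libraries labelled C3-/-. WT libraries held 847, 611, 976 and 2382 after glycerol, against 1463, 1398, 1209 and 1256.5 after PBS. The highest glycerol value of each genotype is a list 2 library, and the groups overlap in both genotypes. The log2 differences of glycerol over PBS were 0.57 ± 0.48 labelled C3-/- and -0.34 ± 0.48 in WT (SE; limma adjusted p = 0.434 and 0.624). Within list 1 the WT difference was -0.74 ± 0.17 and passed (limma adjusted p = 0.0023), and the one labelled C3-/- turned to -0.38 ± 0.19 and did not (limma adjusted p = 0.170).

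**Figure D2:**
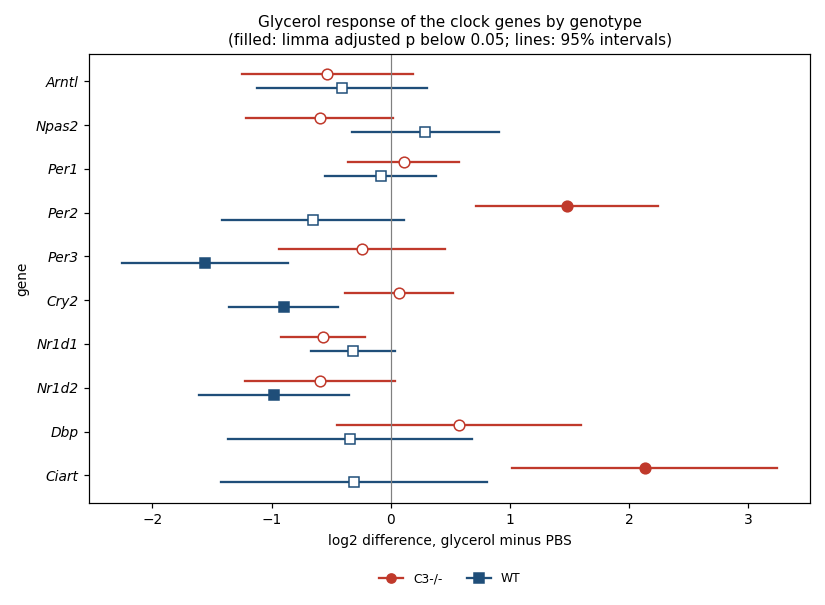
Log2 difference of glycerol over PBS for each clock gene in libraries labelled C3-/- and in WT, with 95% intervals from the limma fit; filled symbols have an adjusted p below 0.05. Per2 and Ciart lie above 0 labelled C3-/-, and Per3, Cry2 and Nr1d2 lie below 0 in WT.

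Read as counts, glycerol changed 2 of the 10 genes labelled C3-/- (Per2 and Ciart, both higher), where 5.63% of all tested genes were called (3.68% higher and 1.96% lower), and 3 of the 10 in WT (Per3, Cry2 and Nr1d2, all lower), where 25.9% were called (12.5% higher and 13.3% lower). The WT share is close to that of all genes. Groups did not overlap for 3 of the 10 labelled C3-/- (Per2, Ciart and Nr1d1) and for 3 in WT (Per3, Cry2 and Nr1d2), against 19.2% and 40.6% of all tested genes. The median log2 difference over the 10 genes was -0.09 labelled C3-/- and -0.38 in WT, against -0.06 and -0.11 over all tested genes. Fitting only the 8 libraries of the comparison labelled C3-/- left 0 of 10 called and 1.71% of all genes, with adjusted p = 0.0841 for Per2 and 0.0956 for Ciart. In list 1 alone, 3 of 10 were called labelled C3-/- (Per2 and Ciart higher, Nr1d1 lower) and 6 of 10 in WT (Per2, Per3, Cry2, Nr1d1, Nr1d2 and Dbp, all lower), where 23% and 55.6% of all genes were called.

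After glycerol the genotypes differed at 6 of the 10 clock genes, where 11.2% of all tested genes were called (6.38% higher and 4.85% lower). Per2, Per3, Cry2, Dbp and Ciart were higher in the libraries labelled C3-/- than in WT, and Npas2 was lower. The log2 differences of C3-/- over WT were 1.65 ± 0.36 for Per2, 1.72 ± 0.33 for Per3, 1.26 ± 0.21 for Cry2, 1.60 ± 0.48 for Dbp and 2.11 ± 0.52 for Ciart (SE; limma adjusted p = 0.0075, 0.0031, 0.0015, 0.0439 and 0.0163). The groups do not overlap for Per2, Per3, Cry2 and Npas2, and they also do not overlap for Nr1d1, which missed the threshold at 0.52 ± 0.17 (limma adjusted p = 0.0553). Groups of this comparison did not overlap at 11.3% of all tested genes. The median over the 10 genes was 0.89 on the log2 scale, against 0.04 over all tested genes.

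Without any 1 of the 8 glycerol libraries, Per2, Per3, Cry2 and Npas2 stayed called. Leaving out a PBS library, which shares the estimate of the spread, was not tried for this comparison. The call of Dbp ended without glycerol 1 or 3 labelled C3-/- or WT glycerol 1, 2 or 3 (adjusted p = 0.0907, 0.124, 0.107, 0.141 and 0.0845), and that of Ciart ended without WT glycerol 1 (adjusted p = 0.0554). Without list 2 the same 6 genes passed in the same direction, with Nr1d1 as a seventh, where 30.1% of all genes were called. There the difference of Dbp was 1.04 ± 0.20. A fit of the 8 glycerol libraries alone called 0 of 10, with 1.65% of all genes called and adjusted p from 0.0545 (Npas2) to 0.295 (Dbp) for the 6. Levels of some nephron genes, of neutrophil genes and of injury genes moved with this comparison too. Called higher labelled C3-/- were 1 of 2 markers of the thick ascending limb and 1 of 2 of the distal convoluted tubule. None of 4 proximal tubule and 3 podocyte markers was called. All 4 collecting duct markers were higher labelled C3-/-, with summed levels of 6273 to 14440 labelled C3-/- and 3025 to 5495 in WT. Sums of 3 neutrophil markers were 66.7 to 200.8 labelled C3-/- and 460.1 to 1040.0 in WT. Of the injury markers Havcr1 and Lcn2, 2 of 2 were called lower labelled C3-/-. Their sums were 1524 to 13200 labelled C3-/- and 45220 to 79100 in WT. The part of all these shifts in the clock differences was not tested.

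**Figure D3:**
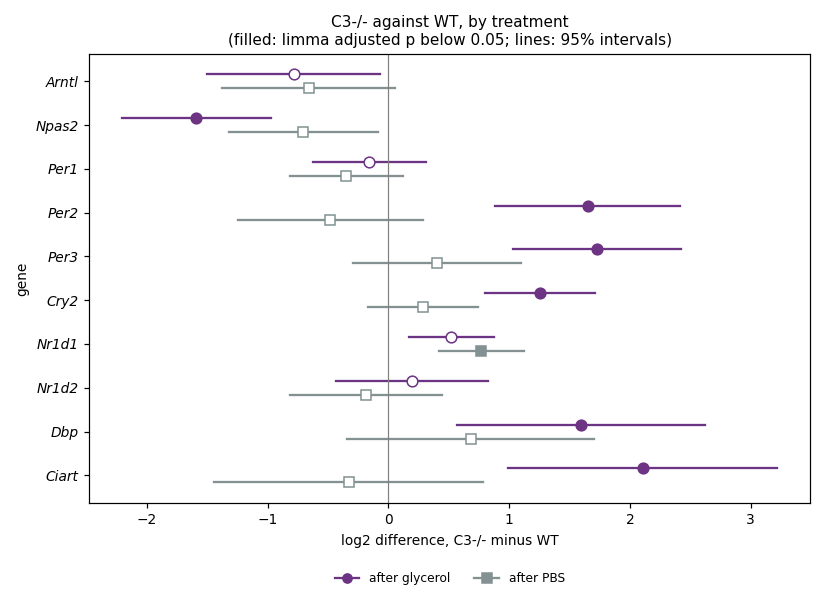
Log2 difference of C3-/- over WT for each clock gene after glycerol and after PBS, with 95% intervals from the limma fit; filled symbols have an adjusted p below 0.05. After glycerol Per2, Per3, Cry2, Dbp and Ciart lie above 0 and Npas2 below it, and after PBS Nr1d1 alone is filled.

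After PBS the genotypes differed at 1 of the 10 genes, Nr1d1, where 2.23% of all tested genes were called (1.04% higher and 1.19% lower). The groups did not overlap for 5 of the 10 (Per3, Cry2, Nr1d1, Nr1d2 and Dbp), against 27% of all tested genes. Dbp averaged 2159 ± 411 normalized counts labelled C3-/- and 1332 ± 119 in WT after PBS, with a log2 difference of 0.68 ± 0.48 (SE; limma adjusted p = 0.821). In list 1 alone, whose PBS libraries are the same 8, 4 of 10 passed, with Cry2, Nr1d1 and Dbp higher labelled C3-/- and Arntl lower, where 19.3% of all genes were called. That fit estimates the spread without the list 2 libraries. Sums of the 3 neutrophil markers were 25.9 to 46.6 labelled C3-/- and 129.6 to 203.3 in WT after PBS, with 2 of 3 called lower. Their part in the PBS differences was not tested.

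The difference between the glycerol responses, C3-/- minus WT, was tested as an interaction, and limma called 0 of the 10 clock genes and 0.438% of all tested genes (0.222% above 0 and 0.216% below). At an unadjusted p below 0.05, 5 of the 10 passed (Per2, Per3, Cry2 and Ciart above 0, Npas2 below), against 10.5% of all genes. Per2 came nearest, at a log2 difference of 2.13 ± 0.51 (SE; limma adjusted p = 0.0815), and it was called without WT glycerol 4 (adjusted p = 0.0463), while Cry2 was called without glycerol 1 labelled C3-/- (adjusted p = 0.0386). In list 1 alone, with 2 glycerol libraries labelled C3-/- and 3 in WT, 4 of 10 were called, all above 0, where 10.3% of all genes were called. These were Per2 at 2.03 ± 0.43, Per3 at 1.22 ± 0.29, Cry2 at 0.92 ± 0.14 and Ciart at 1.99 ± 0.44 (SE; limma adjusted p = 0.0134, 0.0212, 0.0033 and 0.0173). With list as a term in the fit of all 16, where 7.34% of all genes were called, the number was also 4 but the genes were not the same. Per2, Cry2, Ciart and Nr1d2 passed there (limma adjusted p = 0.0222, 0.0222, 0.0214 and 0.0359), and Per3 did not (adjusted p = 0.0524). Adding a term for Y-linked transcripts called the same 4, with 8.36% of all genes.

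**Figure D4:**
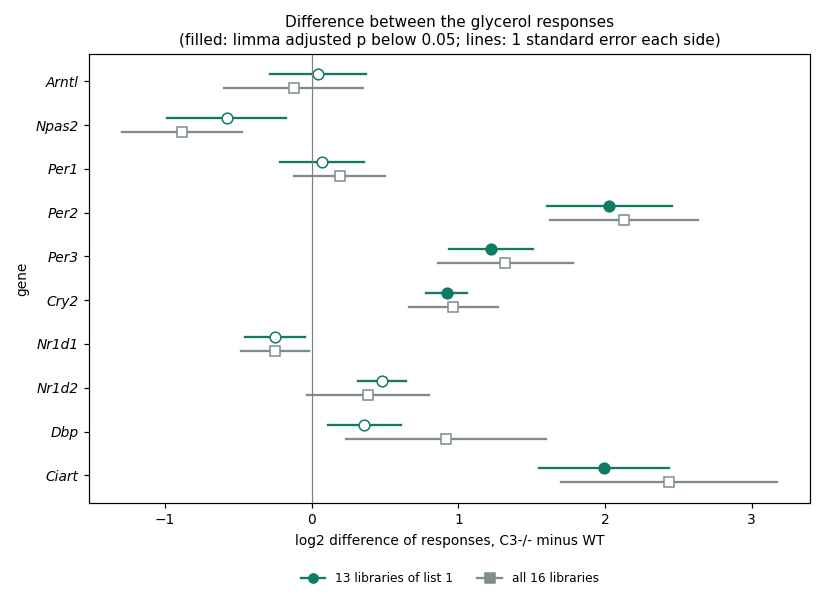
Difference between the log2 glycerol responses, C3-/- minus WT, for each clock gene in list 1 alone (13 libraries) and in all 16 libraries; lines are 1 standard error each side and filled symbols have a limma adjusted p below 0.05. Per2, Per3, Cry2 and Ciart are filled in list 1 alone and no gene is filled with all 16.

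Clock gene levels also varied among libraries of 1 group. Glycerol 3 labelled C3-/- held the highest of the 16 values for 5 genes (Per2, Per3, Cry2, Dbp and Ciart) and the lowest for 2 (Arntl and Npas2). WT glycerol 4 held the lowest for Per3, Cry2 and Nr1d2. Within the glycerol libraries labelled C3-/-, the highest value was 6.11 times the lowest for Ciart, 5.62 times for Dbp and 3.40 times for Per3, while for Nr1d1 it was 1.25 times. In WT glycerol libraries the ratio was 4.175 for Ciart, 3.90 for Dbp, 2.28 for Per3 and 1.41 for Nr1d1. In WT PBS libraries it was between 1.13 for Nr1d2 and 2.32 for Per2. The log2 level of Dbp minus that of Arntl, genes that peak at different times of day, was 5.10, 2.995, 6.59 and 3.03 in glycerol libraries labelled C3-/-, against 2.99, 2.46, 4.05 and 3.78 in PBS libraries labelled C3-/-. In WT it was 1.45, 0.73, 1.90 and 4.13 after glycerol, against 2.28, 2.26, 1.61 and 1.79 after PBS. The 3 highest of these 16 values are the list 2 libraries.

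A further 11 genes of the loop include activators, repressors and PAR bZIP factors, and in WT 3 of them fell. Hlf and Tef, PAR bZIP activators that bind the same D-box as DBP, had the largest falls among them. Hlf had 1038, 2451, 2246 and 2734 normalized counts in glycerol libraries labelled C3-/-, against 3137, 2843, 3497 and 4469 in PBS libraries labelled C3-/-. Its WT values were 650.2, 174, 991 and 239.8 after glycerol, against 3592, 3170.5, 3408 and 3249 after PBS. Glycerol and PBS values do not overlap in either genotype, and in WT Hlf fell by 3.04 ± 0.45 on the log2 scale (SE; limma adjusted p = 0.0002).

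Tef had 4717, 7441, 17436 and 7957 normalized counts in glycerol libraries labelled C3-/-, against 9084, 9362, 9841 and 11192 in PBS libraries labelled C3-/-. The WT libraries had 2760.3, 1370.2, 3318 and 2378 after glycerol, against 8547, 7416, 7065 and 8154 after PBS. Only the WT groups are apart, by a fall of 1.73 ± 0.33 on the log2 scale (SE; limma adjusted p = 0.0014). Nfil3, which represses at the same D-box, rose in WT by 2.05 ± 0.53 (SE; limma adjusted p = 0.0113), with 497 ± 176 normalized counts after glycerol and 116.8 ± 26.9 after PBS (SD, n = 4 each). Of the 11, 2 were higher (Nfil3 and Timeless) and 3 lower (Hlf, Tef and Rora) after glycerol in WT, where 25.9% of all genes were called. Labelled C3-/- 0 of 11 were called, against 5.63% of all genes, and limma gave Cry1, the other cryptochrome, 1.36 (adjusted p = 0.0667). The median log2 difference of the 11 was -0.24 labelled C3-/- and -0.02 in WT. In list 1 alone 5 of the 11 were higher and 3 lower in WT and 2 were higher labelled C3-/-. Of all genes, that fit called 55.6% in WT and 23% labelled C3-/-. There Cry1 passed in both genotypes, at 1.71 labelled C3-/- and 1.02 in WT (limma adjusted p = 0.0020 and 0.0066). So did Nfil3, at 1.41 labelled C3-/- and 2.18 in WT (limma adjusted p = 0.0109 and 7.1e-05).

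After glycerol, 3 of the 11 were higher in the libraries labelled C3-/- than in WT, where 6.38% of all genes were called higher. These were Tef at 1.84 ± 0.33, Hlf at 2.29 ± 0.45 and Bhlhe41 at 1.04 ± 0.27 on the log2 scale (SE; limma adjusted p = 0.0020, 0.0037 and 0.0208). Bhlhe41 was not called in list 1 alone, at 0.93 ± 0.34 (SE; limma adjusted p = 0.0566). After PBS 0 of 11 were called, and the interaction called 0 of 11, against 2.23% and 0.438% of all genes. In list 1 alone the interaction called 2 of 11, Hlf and Tef, both above 0 (limma adjusted p = 0.0350 and 0.0258), where 10.3% of all genes were called.

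**Figure D5:**
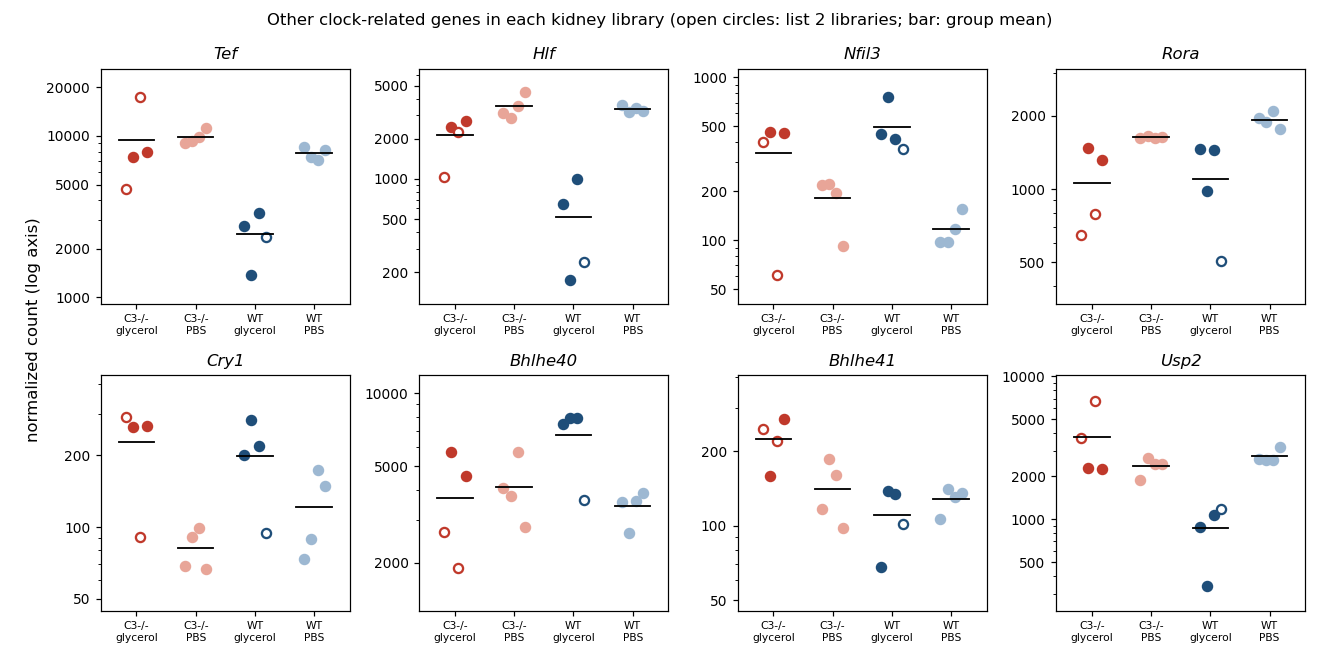
Normalized counts on a log axis of 8 further clock-related genes in each library, by group, with open circles for list 2 and a bar for the group mean (n = 4). Tef, Hlf, Rora and Usp2 lie lower in every WT glycerol library than in any WT PBS library.

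Among 17 kinases, phosphatases, ubiquitin ligases and proteases that act on clock proteins, 3 changed after glycerol in WT and 0 of 17 labelled C3-/-, against 25.9% and 5.63% of all tested genes. Without list 2, 6 were higher and 5 lower in WT, and 5 were higher and 1 lower labelled C3-/-, where 55.6% and 23% of all genes were called. Usp2, a deubiquitinase whose mRNA cycles in kidney, fell in WT to 874 ± 374 normalized counts, against 2764 ± 288 after PBS (SD, n = 4 each), a log2 difference of -1.80 ± 0.37 (SE; limma adjusted p = 0.0028). Fbxl21, a ligase subunit acting on cryptochromes, also fell in WT, and Ppp1ca, a catalytic phosphatase subunit, rose. After glycerol Usp2 was higher labelled C3-/- than in WT by 2.09 ± 0.37 (SE; limma adjusted p = 0.0021) and Ppp1ca was lower. The medians of the 17 were -0.11 labelled C3-/- and 0.04 in WT.

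Of 16 genes listed as clock outputs, 2 were higher and 5 lower after glycerol in WT, and 1 was higher and 1 lower labelled C3-/-. The shares of all tested genes were 12.5% higher and 13.3% lower in WT, and 3.68% higher and 1.96% lower labelled C3-/-. The counts in list 1 alone were 4 higher and 7 lower in WT, and 2 higher and 3 lower labelled C3-/-. Of all genes, 55.6% in WT and 23% labelled C3-/- were called in that fit. The lower ones in WT include Scnn1a, a subunit of the epithelial sodium channel, at -1.04 ± 0.19, Hsd11b2, which protects the mineralocorticoid receptor from glucocorticoids, at -1.40 ± 0.25, and Fmo2 at -2.87 ± 0.58 on the log2 scale (SE; limma adjusted p = 0.0012, 0.0009 and 0.0022). Fmo2 fell in the libraries labelled C3-/- as well, by 2.39 ± 0.58 (SE; limma adjusted p = 0.0249). Of 4 collecting duct markers, 3 were also called lower after glycerol in WT and 0 labelled C3-/-. Their sums in WT were 3025 to 5495 after glycerol and 10140 to 12690 after PBS. The part of that shift in the levels of the output genes was not tested. After glycerol 5 of the 16 were higher and 2 lower labelled C3-/- than in WT, where 6.38% and 4.85% of all genes were called. The higher ones include Scnn1a at 1.00 ± 0.19 and Arntl2, a relative of Arntl, at 1.43 ± 0.30 (SE; limma adjusted p = 0.0033 and 0.0062). Arntl2 was also higher labelled C3-/- after PBS, with 168 ± 36.4 and 37.8 ± 11.3 normalized counts (SD, n = 4 each; limma adjusted p = 0.0007).

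Signals known to reset Per genes were read from lists of their targets. Of 12 genes induced by glucocorticoids, 3 were higher and 4 lower after glycerol in WT, and 3 were higher and 2 lower labelled C3-/-, against 25.9% and 5.63% of all genes called either way. With all 16 libraries the higher ones were Mt1, Mt2 and Cdkn1a in both genotypes, genes that metals and DNA damage also induce, and Dusp1 and Klf9 were lower in both. Without list 2, 3 were higher and 6 lower in WT, and 5 were higher and 3 lower labelled C3-/-. Of all genes, 55.6% and 23% were called in that fit. The higher ones labelled C3-/- there include Fkbp5, which dampens the glucocorticoid receptor, at 1.18 ± 0.28 and Zbtb16 at 1.56 ± 0.42 (SE; limma adjusted p = 0.0093 and 0.0179), while limma gave 0.24 and -0.30 in WT (adjusted p = 0.433 and 0.505). The interaction in list 1 alone called neither gene (limma adjusted p = 0.119 and 0.0517). The 3 lower ones labelled C3-/- there were Dusp1 at -0.84, Klf9 at -0.67 and Klf15 at -1.12 (limma adjusted p = 0.0166, 0.0273 and 0.0459). All 3 were lower in WT as well. That fit holds 2 glycerol libraries labelled C3-/-. Of 14 immediate early genes, 6 were higher after glycerol in WT and 5 labelled C3-/-, with none lower, where 12.5% and 3.68% of all genes were called higher. Their medians were 1.35 labelled C3-/- and 0.83 in WT for glycerol over PBS, on the log2 scale. After PBS, 3 of those 14 (Jun, Fosb and Atf3) were lower labelled C3-/- than in WT, where 1.19% of all genes were called lower. In list 1 alone 7 of the 14 were lower, where 10% of all genes were called lower. After glycerol 3 of the 14 were lower labelled C3-/- than in WT, where 4.85% of all genes were called lower. Without list 2 that number was 2 of 14, where 14.6% of all genes were called lower.

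Likeness of pattern was measured over the 16 libraries as the root mean square difference of log2 values set to mean 0 and SD 1, among 14548 genes. The 5 genes most like Dbp were Pcsk4 at 0.242, Cspg4 at 0.247, Zkscan5 at 0.255, Abhd1 at 0.282 and Prss36 at 0.292, and the 5 most like Arntl were Epb41l2 at 0.346, Gulp1 at 0.359, Sema3g at 0.398, Ptprc at 0.401 and Olfr1033 at 0.425. None is a clock gene of the lists above. All 16 points of each pattern share the list 2 split.

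Reads of overlapping genes may have been shared, because the sources used here do not give a strand setting. In GENCODE M21 on GRCm38, Dbp (chr7:45705088-45710203, plus strand) shares 539 of its 2993 exon bases with Sphk2 on the other strand, and Nr1d1 (chr11:98767932-98775333, minus strand) shares 263 of 3077 with Thra. Cry2 (chr2:92403646-92434043, minus strand) shares 295 of 6320 and Arntl (chr7:113207465-113314126, plus strand) 33 of 7523 with non-coding genes. Sphk2 was called in none of the 4 comparisons between groups. Thra fell after glycerol in WT by 1.06 ± 0.25 (SE; limma adjusted p = 0.0059) and was higher labelled C3-/- than in WT after glycerol by 0.81 ± 0.25 (SE; limma adjusted p = 0.0477). Per2 (chr1:91415982-91459324, minus strand), Per3 (chr4:151003652-151044665, minus strand) and Ciart (chr3:95878503-95882251, minus strand) share no exon base with another gene.

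The authors' deposited tables, made with DESeq2, called the same 3 genes in WT and the same 2 higher genes labelled C3-/-, and there also Nr1d1 lower at -0.57 (adjusted p = 0.0086 in the authors' deposited table). For glycerol C3-/- against WT, the authors' deposited table called the 6 genes above and Nr1d1 as a seventh, at 0.53 (adjusted p = 0.0145). The shares of all genes called in the authors' deposited tables were 15.9% labelled C3-/-, 29% in WT and 16.8% between the genotypes after glycerol.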

How the data were processed

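RNA of 16 kidney libraries, 4 per group, was sequenced, with group and replicate read from each title. Deposited by the authors were 1 matrix of signal, read counts normalized with DESeq2, and 3 tables of their comparisons with a mean signal, log2 fold changes and their errors, a test score, p-values and adjusted p-values per gene. STAR 2.7.1, DESeq2, R 3.6.1 and build GRCm38 are named in the submitters' processing notes. The sources used here give no counting program or strand setting. Whole reads were not recovered (1.78% to 2.11% of values were whole multiples of the lowest within 0.01), so no count model was run, no interval for counting error can be given, and precision rests on the spread between 4 libraries.

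Tests were run with limma 3.58.1 (R 4.3.3) on log2(normalized count + 1), with a mean-variance trend and all 16 libraries in 1 fit. Genes with at least 10 in at least 4 libraries were tested, 18035 of 20525. The tests were two-sided, Benjamini-Hochberg adjustment ran over all tested genes of each of 5 contrasts, and an adjusted p below 0.05 made a call. Fold changes on this scale understate changes of low genes. The calculation was tested on simulated data. The members, the gene lists and the tests were chosen with earlier results of these data known. All 10 members are described. Of each other list at most 4 genes per comparison were to be named, smallest p first, and more were named of the loop and glucocorticoid lists. Beside the 11 further loop genes counted, 1 gene was left out and is not reported here. Alternatives changed the pseudocount, filter, scaling, libraries fitted, list, Y-linked and replicate terms.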

Additional observations from a re-analysis of the deposited data

Results flagged for a closer look

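In 40 sets of 4 values (10 clock genes in 4 groups), 2 held a library far from the other 3, and chance alone gives such a gap in about 1 set in 20. Per2 in the glycerol libraries labelled C3-/- had 4228.5 normalized counts in glycerol 3, a list 2 library, and the gap to the next value was 0.892 of the group's range. Without that library the log2 difference of Per2 over PBS was 1.12, and the call held. Per1 in WT PBS had 2126 normalized counts in PBS 3, at 0.897 of the range. Without it the WT difference of Per1 turned to 0.07, and Per1 was called in no comparison that was fitted with and without it.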

How the results depend on the processing

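Per3 and Cry2 in WT, and Npas2, Per2, Per3 and Cry2 between the genotypes after glycerol, were called without any single library of the groups compared. Only for the interaction was every library left out in turn. Of 590 values of single clock genes under the alternatives, 516 kept direction and side of the threshold, 41 passed it anew, 14 fell short and 19 turned. From the fits without single libraries, only the lowest and highest difference of each gene and comparison are among these values. Calls that ended without a single library are given with each gene above, and not all of them are in this tally. Depth is unknown, so counting error could not be separated from the spread. Where no cause is given for a change, the cause was not tested.

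The number of the 10 genes called after glycerol labelled C3-/- was 2. It was 0 in a fit of the 8 libraries alone, and 0 to 2 without single libraries. That fit of 8 called 1.71% of all genes, the main fit 5.63%. In WT it was 3, against 6 without list 2, 5 with list as a term and 6 with list and Y-linked terms, and 2 to 3 without single libraries. Of all genes, 25.9% were called in WT, against 55.6% without list 2, and the next paragraph counts both term fits. Between the genotypes after glycerol it was 6, against 0 in a fit of the 8 libraries alone, and 4 to 8 without single libraries. The fit of 8 called 1.65% of all genes, the main fit 11.2%. After PBS it was 1, against 4 without list 2 and with the 8 libraries alone, and 2 with list and Y-linked terms. The share of all genes rose too, from 2.23% to 19.3% without list 2, and more with the 8 alone. With both terms it is not given. The interaction had 0, against 4 without list 2 and, with Nr1d2 in place of Per3, with list as a term and with both terms. Of all genes it called 0.438%, against 10.3%, 7.34% and 8.36% in the same order. Without single libraries, PBS and interaction each had 0 to 1.

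Counts over all genes moved too. For glycerol labelled C3-/- 1016 became 4142 without list 2, 2608 with list as a term, 3341 with list and Y-linked terms, 308 with the 8 libraries alone and 492 to 1595 without single libraries. In WT 4666 became 10028, 8339 and 8817 in the first 3 of these. Between the genotypes after glycerol 2025 became 5432, 5720, 6016 and 297, 1262 with a mean of at least 100, and up to 4396 without single libraries. After PBS 402 became 3481, 1510 with list as a term, 4579 with the 8 libraries alone, 203 with a mean of at least 100 and 220 at the lowest without single libraries. The interaction's 79 became 1858, 1324 and 1508, 141 with a pseudocount of 8, 48 with a mean of at least 100, 42 with equal column sums and 38 to 225 without single libraries. Equal column sums raised the share of higher calls from 65.3% to 76.7% labelled C3-/-. In WT it rose from 48.5% to 59.5% and in the interaction from 50.6% to 61.9%. The median of all genes in WT was -0.11 as reported, -0.03 with equal column sums and -0.02 with quantile normalization.

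Differences that turned were those of genes not called. For glycerol labelled C3-/-, Dbp was -0.38 without list 2, -0.31 with list as a term and -0.43 with list and Y-linked terms, and Per1 was -0.11, -0.094 and -0.067 in the same settings. Per3 was 0.015 with list as a term, and Arntl was 0.040 with list and Y-linked terms. After PBS, Ciart was 0.23 between the genotypes with list and Y-linked terms. In the interaction Arntl was 0.044 without list 2, 0.14 with list as a term and 0.20 with both terms. Without single libraries the differences ran, for glycerol labelled C3-/-, from -0.071 to 0.28 for Cry2, -0.048 to 0.27 for Per1 and -0.49 to 0.095 for Per3, and in WT from -0.18 to 0.067 for Per1. Between the genotypes after glycerol they ran from -0.14 to 0.38 for Nr1d2 and -0.31 to 0.0096 for Per1, and in the interaction from -0.42 to 0.099 for Arntl.

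With the replicate number as a block, 2 genes were called labelled C3-/-, 2 in WT, 5 between the genotypes after glycerol, 1 after PBS and 0 in the interaction. Nr1d2 in WT (limma adjusted p = 0.0521) and Dbp between the genotypes (adjusted p = 0.0583) were the 2 calls it ended. Over all genes, the block called 632 labelled C3-/- and 41 in the interaction, with its other counts not given. The numbers were not treated as pairs: deviations of libraries with the same number correlated at -0.107 to 0.189 labelled C3-/-, -0.069 to -0.006 in WT, -0.692 to 0.385 after glycerol and -0.0115 to 0.0489 after PBS. Of 4 libraries, 2, 0, 0 and 3 correlated best with their own number.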
